A study of Caenorhabditis elegans with 2 samples.

Results

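The genes described here code for the spliceosome and for proteins that steer it to splice sites. They were chosen by name as the protein-coding genes of Caenorhabditis elegans whose symbol begins with rsp-, snr-, prp-, sftb-, sap-, uaf-, sfa-, rnp- or mog- followed by a digit. There were 51 such genes among 19973 protein-coding genes. By known role, 8 code for SR proteins, 7 for Sm core proteins and 3 for DEAH-box helicases. Another 17 code for proteins of the U1 and U2 particles and of 3' splice site recognition, 6 for the U4/U6.U5 tri-snRNP, 5 for the Prp19 complex and catalytic step factors, and 5 for other RNA-binding proteins of the rnp- series. The symbol rule also takes in rnp-8, which is known as a partner of the poly(A) polymerase GLD-2 in the germ line, and rnp-1, which is not known as a spliceosome part.

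ChIP-seq of LET-526 was made in 1 group of worms with 2 biological replicates. LET-526 corresponds to ARID1 of mammals, a large subunit that helps the SWI/SNF (BAF) nucleosome remodelling complex to hold DNA. The worms were of strain RW12306, in which TY1::EGFP::3xFLAG was inserted at let-526 by CRISPR, so the tagged protein stands at its own locus. They were bleached, synchronised by starvation as L1 larvae and collected whole as young adults of 60 hours, and chromatin was sonicated and recovered with an antibody against GFP. Whole worms mix germ line, embryos in the mother and all somatic tissues, so no value here belongs to 1 cell type. No control library was analysed here. Peak lists alone were used, and sequencing depth is unknown.

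Introns are removed from pre-mRNA by the spliceosome, which is built anew on each intron from small nuclear ribonucleoprotein particles (snRNPs). Each snRNP holds a small nuclear RNA ringed by Sm proteins, and SR proteins bind exons and help the U1 and U2 particles to find the intron's ends. DEAH-box helicases and the Prp19 complex then drive the changes of shape that lead to catalysis. In C. elegans several of these genes were found as mog genes, whose loss makes the germ line produce sperm without switching to oocytes.

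LET-526 peaks stood at the promoters of 8 of the 51 genes: mog-4, prp-19, rsp-1, rsp-2, rsp-6, snr-1, snr-2 and snr-4. A promoter peak is one whose summit lies from 1000 bp upstream to 200 bp downstream of the annotated start, in the longer of the authors' thresholded lists made from both replicates, called the optimal list here. The share was 15.7% (exact Clopper-Pearson 95% interval 7.02 to 28.6%), and the same window held a peak in 664 of all protein-coding genes, which is 3.32%. The interval covers counting error over genes only. Because rsp-1 and rsp-2 share a peak, the 8 genes rest on 7 distinct peaks. The shorter conservative list gave 7 genes, losing snr-2, beside 3.16% of all genes. Replicate 1 alone gave 5 genes beside 1.83%, and replicate 2 alone gave 4 beside 1.35%. The 4 genes with a peak in every list were mog-4, prp-19, rsp-1 and rsp-2.

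The sequences under 6 of the 7 peaks are printed because they are the DNA that the results turn on, in lower case and 5' to 3' on the strand of the member gene. They were read from the RefSeq genome of assembly WBcel235, on which all coordinates are given. Capitals mark CGCG, which was picked after the sequences had been seen, and GGGCGG or its reverse complement CCGCCC. The seventh peak, at snr-2, is named only.
mog-4 (chrII:14561767-14561972, minus strand): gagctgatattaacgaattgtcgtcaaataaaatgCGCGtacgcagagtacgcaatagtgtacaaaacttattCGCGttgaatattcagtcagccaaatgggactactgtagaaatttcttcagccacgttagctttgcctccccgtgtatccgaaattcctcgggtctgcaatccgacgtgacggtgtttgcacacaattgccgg
prp-19 (chrIII:5172629-5172737, minus strand): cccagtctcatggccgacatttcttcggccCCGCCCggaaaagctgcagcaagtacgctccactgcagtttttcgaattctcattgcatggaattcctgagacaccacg
rsp-1 and rsp-2 (chrII:11453112-11453381, plus strand): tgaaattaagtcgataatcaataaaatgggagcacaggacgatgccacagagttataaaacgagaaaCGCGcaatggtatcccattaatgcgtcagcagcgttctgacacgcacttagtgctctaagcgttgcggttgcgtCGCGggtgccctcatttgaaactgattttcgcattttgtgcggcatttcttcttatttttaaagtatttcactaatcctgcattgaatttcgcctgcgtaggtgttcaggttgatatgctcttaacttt
rsp-6 (chrIV:7791296-7791565, minus strand): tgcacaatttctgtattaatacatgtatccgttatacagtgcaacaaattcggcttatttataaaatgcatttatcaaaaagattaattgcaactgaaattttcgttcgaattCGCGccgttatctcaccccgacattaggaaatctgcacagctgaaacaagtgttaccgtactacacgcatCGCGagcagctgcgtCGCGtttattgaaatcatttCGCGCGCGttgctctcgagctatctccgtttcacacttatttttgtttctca
snr-1 (chrIV:17087537-17087806, plus strand): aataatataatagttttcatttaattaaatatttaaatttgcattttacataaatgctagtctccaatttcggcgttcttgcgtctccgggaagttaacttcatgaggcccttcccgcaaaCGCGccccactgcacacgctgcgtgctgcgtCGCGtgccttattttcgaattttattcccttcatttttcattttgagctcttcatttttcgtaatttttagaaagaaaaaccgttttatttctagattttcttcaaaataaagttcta
snr-4 (chrV:11979966-11980235, minus strand): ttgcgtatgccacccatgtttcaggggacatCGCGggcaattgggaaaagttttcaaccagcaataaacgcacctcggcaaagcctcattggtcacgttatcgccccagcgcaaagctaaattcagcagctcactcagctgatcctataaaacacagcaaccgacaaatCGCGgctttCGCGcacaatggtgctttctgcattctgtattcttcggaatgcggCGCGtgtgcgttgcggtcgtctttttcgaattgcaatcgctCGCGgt
The rsp-6 peak held 6 matches to CGCG, some of them overlapping in a run of alternating C and G, and the snr-4 peak held 5. The mog-4, rsp-1 and snr-1 peaks held 2 each. The prp-19 peak held none and was the only one of the 6 with GGGCGG.

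In 270 bp centred on the summit, CGCG was present in 6 of the 7 peaks, counting snr-2. It was present in 318 of 522 promoter peaks of the optimal list (60.9%), in 639 of all 1200 peaks (53.2%), and in 25.6% of windows of 270 bp directly upstream of all protein-coding genes. GGGCGG was in 1 of the 7, beside 12.3% of promoter peaks and 7.38% of upstream windows. Both strands were searched, and CGCG reads the same on each. The E-box CACGTG was in 0 of the 7, beside 12.3% of promoter peaks, and GAGAGA in 0, beside 38.9%. The longer CTGCGTCTC was also in 0, beside 12.1%, and TTTTTTTT in 0, beside 18.8%. In promoters of a fixed 300 bp, from 250 bp before the start to 50 bp after it, CGCG was in 5 of the 8 members with a peak and in 17 of the 43 without, beside 27.9% of all promoters. The run of 8 T was in 0 of the 8 and in 17 of the 43 (39.5%), beside 32.5% of all promoters. The summits of mog-4, prp-19, rsp-2, snr-1, snr-2 and snr-4 lay upstream of this fixed window, so for them it does not cover the summit. The windows of rsp-1 and rsp-2 overlap, so the 8 are not separate sequences. The median GC content was 40.4% over the 7 peaks and 43% over the 522 promoter peaks. These counts describe letters in the windows, and no test was made on so few peaks.

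By role, the peaks fell in 4 of the 7 classes. SR protein genes had a promoter peak in 3 of 8 cases (37.5%, interval 8.52 to 75.5%) and Sm genes in 3 of 7 (42.9%, interval 9.9 to 81.6%). Helicase genes had 1 in 3, with an interval of 0.84 to 90.6%, and Prp19 complex and step factor genes 1 in 5, with an interval of 0.505 to 71.6%. None was found among the 17 genes of U1, U2 and 3' splice site recognition, where the interval reached 19.5%, among the 6 tri-snRNP genes, where it reached 45.9%, or among the other 5 rnp- genes, where it reached 52.2%. Taken as 1 class, the 33 genes outside the SR, Sm and helicase classes had 1 peak (3.03%, interval 0.0767 to 15.8%). That share is near the 3.32% of all protein-coding genes. The 3.32% also lies within the intervals of the helicase class, the Prp19 class and the classes without a peak. The Sm count was 1 in replicate 1 alone, 0 in replicate 2 alone and 1 when each peak counted for its nearest start only. The SR count includes rsp-1 and rsp-2, which share 1 peak, although the interval counts them as separate genes. Each replicate alone left only these 2 SR genes, and so 1 peak. The intervals of all classes overlap, and no test of the difference between classes was made.

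**Figure D1:**
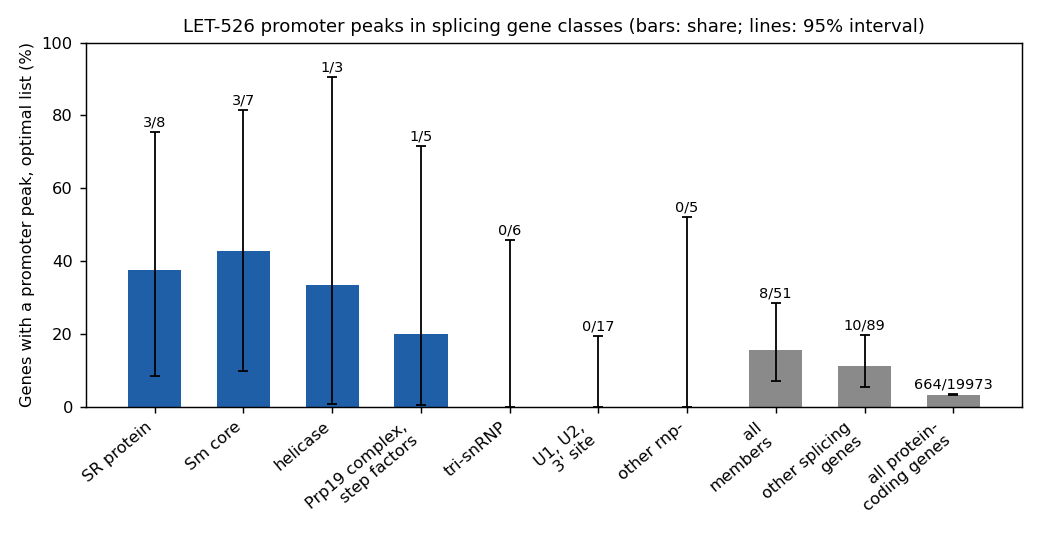
Bars give the percentage of genes with a promoter peak in the optimal list, by class and for all 51 members, 89 other splicing genes and all protein-coding genes, and lines give exact 95% intervals. SR (37.5%) and Sm genes (42.9%) have the highest shares, though the Sm count of 3 falls to 1 or 0 in a single replicate. The SR count of 3 includes rsp-1 and rsp-2, which share 1 peak and are the only SR genes left in a single replicate. Intervals of the 3 classes at 0, of the helicases and of the Prp19 class include the 3.32% of all protein-coding genes. The intervals of all classes overlap.

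Among the helicases, mog-4 carried the strongest peak of all members. It codes for the worm ortholog of the yeast helicase Prp2, which acts before the first catalytic step. The summit lay 264 bp upstream of the start, with a signal of 522.6 in the optimal list. Signal is the authors' own value for each peak and is compared only within a list. It ranked 3 among the 1200 optimal peaks and 3 among the 522 that lie in a promoter window. The replicates gave 298.6 and 228.8, both past the authors' threshold, with summits 268 bp and 270 bp upstream. mog-4 has no close upstream neighbour, since the next gene, madf-5, lies 12016 bp away. The other helicases stood far below. The window of mog-1, the Prp16 ortholog, had a ranked signal of 42.0 at 673 bp upstream, and that of mog-5, the Prp22 ortholog, had no summit at all in the ranked list of the optimal comparison. A ranked list holds the peaks that the authors ranked by reproducibility, most of them far below the threshold. A window can lack a summit in 1 such list and hold a summit in another, as mog-5 had 8.3 in replicate 1. All 3 are mog genes, and the peak stood at 1 of them.

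In the Prp19 complex class, prp-19 itself had a promoter peak. It codes for the ubiquitin ligase that gives the complex its name. The signal was 221.1, at rank 50 of 1200, with 138.8 in replicate 1 and 83.6 in replicate 2, and the peak passed the threshold in each replicate alone. Its summit was 635 bp upstream of prp-19 and only 40 bp upstream of K10D2.5, which is transcribed the other way. The same summit also fell in the window of emb-1, at 759 bp. The peak is therefore closest to another gene's start, and a count by nearest start gives it to K10D2.5. Among the other step factors, mog-3 had a ranked signal of 46.6 and prp-18, which acts in the second catalytic step in yeast, had 19.9. No ranked summit was listed for mog-7 or prp-17.

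SR proteins bind exonic enhancers through an RNA recognition motif and carry a domain rich in arginine and serine. The genes rsp-1 and rsp-2 are a divergent pair whose starts lie 407 bp apart, and 1 peak with a signal of 121.5 stood between them. The summit was 115 bp upstream of rsp-1 and 292 bp upstream of rsp-2. Replicate 1 gave 55.7 and replicate 2 gave 71.2, both past the threshold, which put the window at percentiles 98.1 and 99.4 of all genes. rsp-6, the ortholog of SRSF3, had a peak of 109.2 at 202 bp upstream. Its replicate values were 65.3 and 41.7, neither past the threshold alone, with −log10 IDR values of 1.87 and 1.00 against 3.01 in the optimal comparison. The IDR, the irreproducible discovery rate, is the authors' measure of how far a peak fails to recur between 2 sets. rsp-6 was also the only member with an optimal peak inside the gene beyond the window, at 899 bp downstream of the start, with a signal of 90.2.

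The other 5 SR genes had no promoter peak. rsp-8 came closest, with a ranked signal of 65.8 at 569 bp upstream and a −log10 IDR of 0.87. Its replicate values were 35.8 and 27.6. rsp-4, the ortholog of SRSF2, reached 40.4, rsp-7 reached 30.6 and rsp-5 reached 15.8 in the optimal comparison. No ranked summit was listed there for rsp-3, the ortholog of SRSF1, although replicate 1 alone had one of 16.2. A second divergent pair within the set, rsp-5 and snr-3, has starts 404 bp apart, almost the same spacing as rsp-1 and rsp-2. It had no thresholded peak in any list. In the optimal comparison the strongest ranked summits were 15.8 in the rsp-5 window and 39.3 in the snr-3 window. The rsp-5 window had 37.7 in replicate 1 (percentile 94.5) and 11.8 in replicate 2. The snr-3 window had 17.3 in replicate 1 and 31.0 in replicate 2 (percentile 94.1), so each stood high in a different replicate. The summit of 37.7 lay 967 bp upstream of rsp-5, and that of 31.0 lay 740 bp upstream of snr-3. Each of these was inside the other gene of the pair and not between the starts.

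Sm proteins form the ring around the small nuclear RNAs. Peaks stood upstream of snr-1 (SmD3), snr-2 (SmB) and snr-4 (SmD2), at 377, 344 and 378 bp from the start. snr-1 had a signal of 108.5, with 54.9 and 47.2 in the replicates. Its summit was nearer to snx-13, a sorting nexin gene on the other strand whose start lay 234 bp away. snr-2 had 94.5 for a peak on chromosome I from 13338918 to 13339187, with 71.7 in replicate 1 and 18.8 in replicate 2. These values put its window at percentiles 99 and 73.2 of all genes, the widest gap between replicates among the 8 genes, and the peak passed the threshold in replicate 1 but not in replicate 2. Its −log10 IDR was 2.48 in the optimal and 0.44 in the conservative comparison, and W08E3.4, 122 bp away, was nearer to the summit. snr-4 had 85.6, with 54.6 and 34.1 in the replicates. Only snr-4 of these 3 was the nearest protein-coding start to its own peak.

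The snr-4 summit also fell on the last base of the annotated non-coding RNA C52E4.14 and 17 bp from the small nuclear RNA gene C52E4.8, which runs on the other strand from 11980118 to 11980261 on chromosome V. Whether the peak belongs to snr-4 or to these genes was not tested. Its score was 869, the lowest among the 7 peaks, where 830 is the lowest score in the thresholded lists and stands for an IDR near 0.01. The conservative list held a further peak in the snr-4 window. The other 4 Sm genes had no promoter peak. Ranked signals were 39.3 for snr-3 (SmD1) and 31.9 for snr-7 (SmG), and snr-6 (SmE) stood with them at percentile 77.8 of all genes, beside 76.5 for snr-3 and 63.6 for snr-7. No ranked summit was listed for snr-5 (SmF) in the optimal comparison. The Sm genes with a promoter peak stood at 97.5 or above on that scale, which their place in the optimal list largely fixes.

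**Figure D2:**
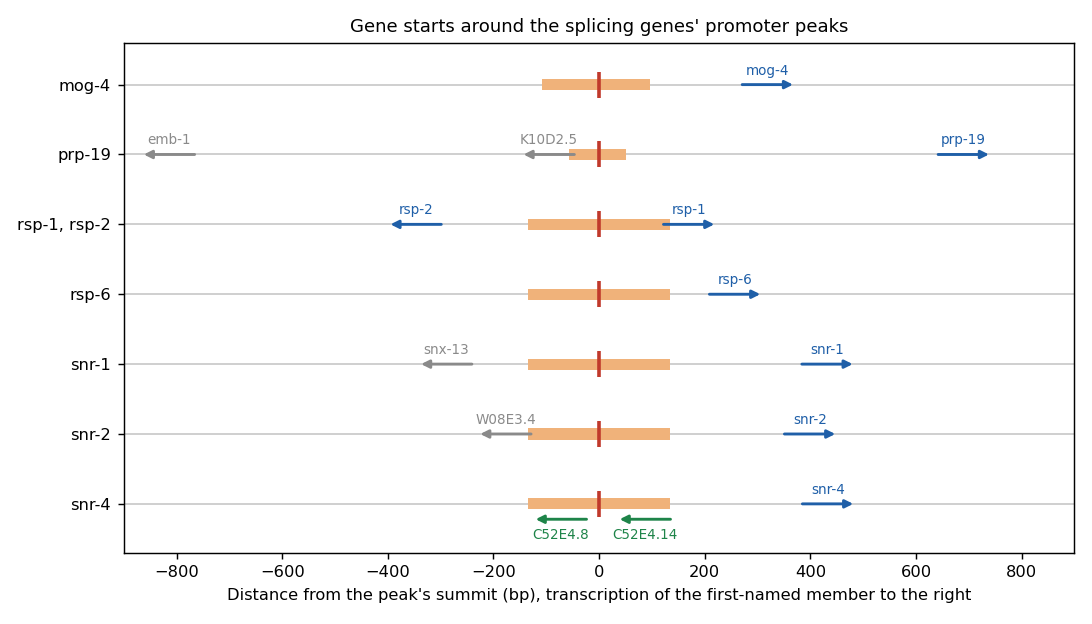
Distances in bp from each peak's summit (red mark) run along the x axis, with the peak as an orange bar and arrows of fixed length for the start and direction of members (blue), other protein-coding genes (grey) and non-coding genes (green). Member starts lie 115 to 635 bp from the summit, and a protein-coding gene on the other strand starts closer at prp-19, snr-1 and snr-2, as do the non-coding genes at snr-4.

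The component genes of U1, U2 and 3' splice site recognition had no peak. A ranked summit was listed for 14 of the 17 (82.4%), beside 65.5% of all genes. The highest was prp-39, a U1 component in yeast, with 72.0 at 130 bp downstream of the start. Its −log10 IDR was 1.94 and its score 806, so it lay just below the threshold of 830. The replicates gave 39.4 and 29.2. rnp-2, which codes for a U1 protein, had 47.7 at 13 bp downstream, and replicate 2 gave 23.3 while replicate 1 listed no summit. The genes of the U2AF heterodimer, which reads the 3' splice site, were listed in different places. uaf-2 had 42.3 at 159 bp downstream of the start in the optimal comparison. Its strongest summit in replicate 1 was a different one, of 33.1 at 529 bp upstream, and replicate 2 listed none. uaf-1 had a ranked summit only in the conservative comparison, at 27.2. rnp-3, the U2B'' ortholog, and sftb-2, of the SF3B complex, had none in the optimal comparison either. sftb-1, the SF3B1 ortholog, had 29.7. In the optimal comparison all of these genes lay below the 8 with a peak, an order that the threshold itself largely sets. In replicate 2, snr-2 had 18.8, which was below prp-39 and rnp-2.

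In the tri-snRNP, prp-8, which codes for the protein at the catalytic centre, had the strongest summit with 58.8 at 310 bp upstream. The replicates gave 28.2 and 26.3, and the −log10 IDR was 0.19. prp-4 had 45.2, prp-31 had 41.2, prp-6 had 37.7 and prp-3 had 14.1, and prp-38 had no ranked summit in the optimal comparison. Of the other rnp- genes, rnp-9 was highest with 47.9 at 934 bp upstream, with 20.7 and 28.6 in the replicates. rnp-4, the ortholog of the exon junction protein Y14, had 39.6, and its start lies 1 bp after the end of snfc-5, which codes for the SNF5 subunit of the SWI/SNF complex. rnp-8 had 29.2 and rnp-5 had 21.2, and rnp-1 was lowest, at percentile 36.9 of all genes.

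**Figure D3:**
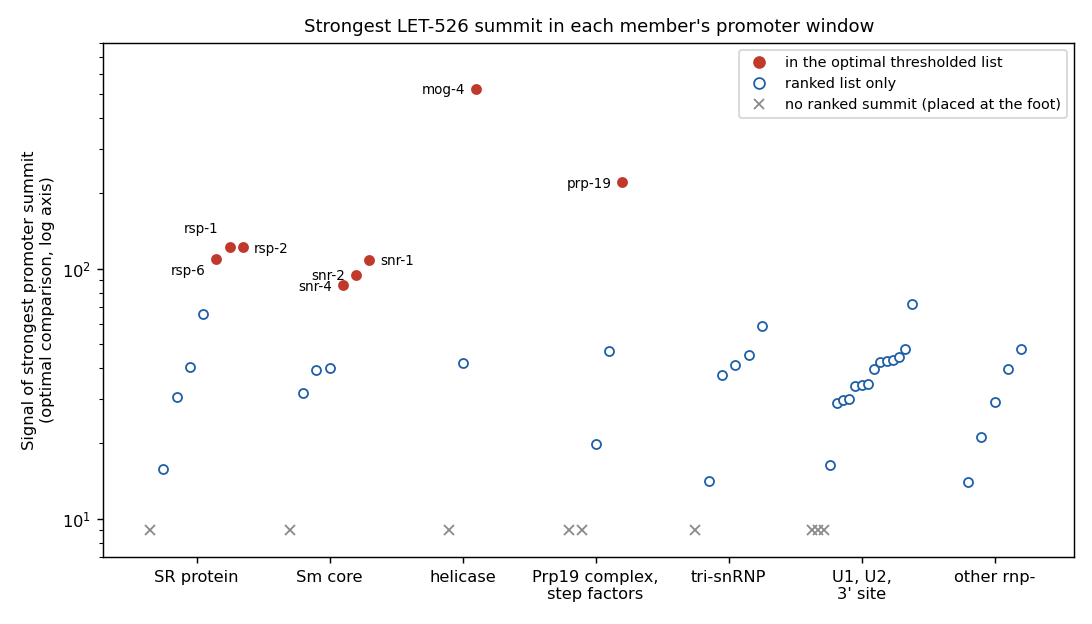
Each point is 1 member, with the signal of its strongest promoter summit in the optimal comparison on a log axis. Filled red points are the 8 genes with a thresholded peak (85.6 to 522.6), open points are ranked only (up to 72.0), and crosses at the foot are the 9 genes with no ranked summit.

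The ranked lists place every member, with or without a thresholded peak. Each gene was given the percentile of its strongest promoter summit among all 19973 genes, with genes lacking a summit tied at the bottom (percentile 17.2 in the optimal comparison). The median over the 51 members was 76.5, where 50 is the median of all genes, and 36 members were above 50. The 11 above 90 were the 8 with a peak and 3 below the threshold, prp-39, rsp-8 and prp-8. A ranked summit was listed for 42 members (82.4%), beside 65.5% of all genes. With genes lacking a summit left out, the median over those 42 was 67.8. Class medians were 86.7 for SR proteins, 80.6 for helicases, 77.8 for Sm proteins, 76.8 for the tri-snRNP, 67.7 for U1, U2 and 3' splice site recognition, 58.3 for the other rnp- genes and 42.3 for the Prp19 class. The classes were wide, since all but the other rnp- genes ran from 17.2 to above 90.

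Each replicate was also read on its own. The optimal list was made from both replicates, so the standing of its 8 genes in each is partly fixed by that list. A place on it does not require a thresholded peak in both replicates, as snr-2 shows. Of the 51 members, 24 had a ranked summit in both replicates, 12 only in replicate 1, 7 only in replicate 2 and 8 in neither. This split was not counted for all genes, so it does not show whether members differ from them. In all, 36 (70.6%) had one in replicate 1, beside 47.3% of all genes, and 31 (60.8%) in replicate 2, beside 50.1%. The median percentile was 71.8 in replicate 1 and 57.1 in replicate 2. The 8 genes with an optimal peak stood at 98 or above in replicate 1. In replicate 2, 6 of them stood at 97.6 or above, with snr-4 at 95.8 and snr-2 at 73.2. The U1, U2 and 3' splice site class went from a median of 71.8 in replicate 1 to 24.9, the tied bottom, in replicate 2, where 6 of its 17 genes (35.3%) had a summit, beside the 50.1% of all genes. SR genes stood at 94 and 86.3.

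**Figure D4:**
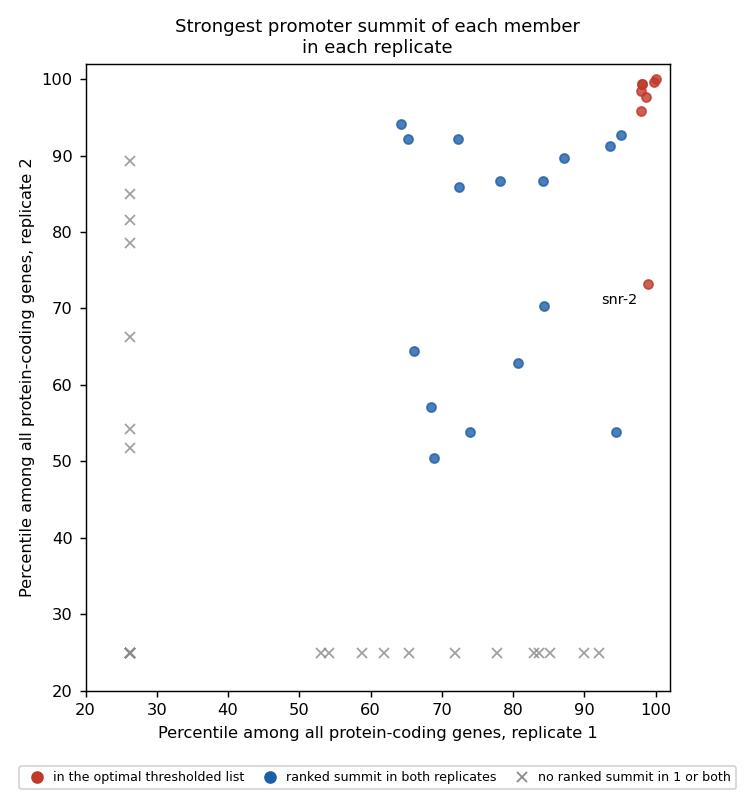
Each point is 1 member, by the percentile of its strongest promoter summit among all protein-coding genes in replicate 1 (x axis) and replicate 2 (y axis). Genes with an optimal peak (red) lie in the upper right corner except snr-2 (99 and 73.2), and crosses mark members with no ranked summit in 1 replicate or both.

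The 7 peaks ran from rank 3 to rank 364 among the 522 promoter peaks. Their median signal was 109.2, from 85.6 to 522.6, beside 97.4 over the 522 promoter peaks and 92.3 over all 1200. Of the 7, 5 were above the median of promoter peaks. Replicates alone called 3 of the 7 in both and 3 in neither, beside 27.2% and 41.2% of promoter peaks. More than 1 gene's window held the summit for 4 of the 7, beside 158 of 522 (30.3%). A non-coding gene was within 200 bp of 1 of the 7, at snr-4, beside 122 of 522 (23.4%).

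Many members lie head to head with another gene, where 1 summit can fall in both windows. An upstream neighbour on the opposite strand within 1000 bp was found for 29 of 51 members (56.9%), beside 17.1% of all protein-coding genes. In that setting 5 of the 29 had a peak (17.2%), beside 7.5% of all such genes. A same-strand neighbour within 1000 bp was found for 11 members, of which rsp-6 and snr-4 had a peak (18.2%), beside 2.37% of all such genes. Of the 4 members with a neighbour on the opposite strand beyond 1000 bp, mog-4 had a peak, beside 3.01% of all such genes. The remaining 7, with a same-strand neighbour beyond that distance or a start inside another gene, had none. The shares of all such genes were also low, at 1.93% and 2.69%. For 10 members the upstream neighbour was itself a splicing gene. These included mog-7 with mfap-1, rsp-7 with snu-13, prp-38 with plrg-1, rnp-7 with syf-2, sfa-1 with cyn-13 and rnp-3 with rnp-2. Of all 10, only rsp-1 and rsp-2 had a peak, which they share. No such count was taken for all genes.

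For the 43 members without a peak, the median distance to the nearest optimal summit was 36042 bp. It ran from 1135 bp at sap-140 to 368209 bp at prp-18, and 5 were within 5000 bp. These distances were not taken for all genes, so they do not show whether members differ from other genes without a peak. By chromosome, 16 members lay on III (31.4%, beside 13.2% of all protein-coding genes) and 13 on II (25.5%, beside 17.3%). Only rnp-9 lay on X (1.96% of members, beside 13.7%).

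Other genes of the splicing pathway, outside the symbol rule, were read from a list of 98 names, of which 89 were in the annotation under that symbol. A promoter peak stood at 10 of the 89 (11.2%, interval 5.52 to 19.7%), beside the 3.32% of all genes. The strongest was at cyn-10, a cyclophilin, with 141.6 at 129 bp upstream. rsr-1, of the SRm160 family of splicing coactivators, had 122.3 and was the only one past the threshold in both replicates. Its summit was 462 bp upstream of rsr-1 and nearer to the start of sri-5, at 270 bp. cyn-4, the cyclophilin also known as mog-6, had 103.8. smn-1, whose human ortholog assembles Sm rings onto small nuclear RNAs, had 99.5 at 158 bp upstream, with klp-16 nearer and the miRNA cel-mir-4932 at the summit.

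The remaining 6 were weaker. spk-1, the kinase that phosphorylates SR proteins, had 90.6. hel-1, the ortholog of the helicase UAP56, had 89.6 at a summit inside the gene C26D10.3. smu-2, a splicing factor with a summit 21 bp upstream, had 87.1. hrpk-1, an hnRNP K gene, had 81.5 at 188 bp downstream. lsm-5, of the Sm-like ring, had 80.3 at 968 bp upstream, inside the gene acs-2. hrpr-1, an hnRNP gene, had 70.6 at 931 bp upstream and 37 bp from a tRNA gene. The median of the 10 peaks was 90.1, below the 97.4 of all promoter peaks. The conservative list gave 7 of the 89 (7.87%, beside 3.16% of all genes) and replicate 1 gave 5 (5.62%, beside 1.83%). Replicate 2 gave 1 (1.12%), which was not above the 1.35% of all genes.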

How the data were processed

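ChIP-seq peaks of LET-526 from 2 replicates of 1 group were used as deposited on ce11, the same assembly as WBcel235: every peak ended within the WBcel235 chromosome lengths. The sources used here give neither an aligner nor a peak caller, nor any version of either. The authors deposited thresholded lists of 1200 (optimal), 1077 (conservative), 585 (replicate 1) and 421 (replicate 2) peaks, and ranked lists of 81275, 78700, 46104 and 49296. The signal deposited for each peak is the caller's own value. The score deposited by the authors is scaled from the IDR to at most 1000. The IDR is deposited as −log10 in the ranked lists. Of the ranked lists made from both replicates, the one holding every optimal peak was taken as the optimal comparison and the one holding every conservative peak as the conservative comparison. Unmatched per-sample columns numbered 0.

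Summits were assigned to Ensembl release 115 gene starts with Python 3.11.15, intervals came from SciPy 1.17.1, and the window assignment was tested on simulated data with planted peaks. Non-coding genes are named as RefSeq names them by position. No test compared groups, and no set test was run. The members, classes and lists were chosen with earlier results of these data known. Named genes were every member with a thresholded promoter peak, the 5 highest other members by percentile, every member with no ranked summit, every other splicing gene with an optimal peak, and genes sharing a member's peak. Further members of each class, the upstream neighbours and snrp-200 were named after their values were seen. Alternatives were other windows, nearest start only, any transcript start, the conservative list, peaks above the median signal, each replicate alone, members without rnp-1 and rnp-8, and genes without a ranked summit left out.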

Additional observations from a re-analysis of the deposited data

How the results depend on the processing

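The count of 8 members was 7 with a window of 500 bp upstream to 100 bp downstream (2.48% of all genes), 9 with 2000 bp to 500 bp (adding sap-140; 4.72%), 8 with any transcript start (3.72%), 7 with peaks above the median signal (2.09%) and 8 of 49 without rnp-1 and rnp-8. Leaving out peaks within 200 bp of a non-coding gene, an alternative chosen after seeing the data, gave 7, losing snr-4. Counting each peak for the nearest start only gave 4 (mog-4, rsp-1, rsp-6 and snr-4), beside 496 of all genes (2.48%). Each replicate alone gave 4 to 5. For Sm genes the count of 3 became 1 by nearest start and 0 to 1 with a single replicate, where the peak left in replicate 1 was snr-2. For the 33 genes outside the SR, Sm and helicase classes, the count of 1 (prp-19) became 0 in the narrow window and by nearest start, and 2 in the wide window. The count of 10 other splicing genes became 4 with peaks above the median signal and 1 to 5 with a single replicate. The conservative list, which also gave 7 of these, added snrp-200. SR and helicase counts of genes stayed within 1.5 times of the main count in every alternative run. In each single replicate, however, the SR count of 2 was rsp-1 and rsp-2, which share 1 peak. The median percentile of members ran from 57.1 to 76.6 over the alternatives. The signals in each single replicate stand beside the optimal values in the results and come from lists of other depth. No paired analysis was possible because there was 1 group. Depth limits what a missing peak shows: with no reads, a member without a peak may be unbound or below detection.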
